A study of Mus musculus with 8 samples.

Results

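The events described here are the splicing differences that the authors' deposited table classes as "Alternative First Exon": 2356 of the 26983 events of all classes, taken by class alone, whatever their size or p-value. They were scored between libraries of BaF3 cells with and without knockdown of Ybx1. BaF3 is a mouse cell line derived from pro-B cells. All 8 libraries carried Jak2V617F, a form of the kinase JAK2 whose V617F change makes it active without a cytokine. The control group, shNT, expressed a non-targeting short hairpin RNA and had 4 libraries. Each of the groups sh1Ybx1 and sh2Ybx1 expressed a different hairpin against Ybx1 and had 2 libraries. Growth medium was the same in every group. Polyadenylated RNA was sequenced, and no label says that libraries of a group came from separate cultures. The p-values computed here from gene counts and transcript levels therefore reflect library-to-library spread, which may be technical. What spread the authors' p-values per event measure is not known, since no value per library is listed for an event.

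A gene with more than one promoter can begin its transcripts at different first exons that splice to the same downstream exon. The choice can change the start of the protein, or only the leader of the mRNA and the conditions under which the gene is transcribed. Genes of blood cells with well known alternative promoters include Runx1 and Etv6. YBX1 carries a cold shock domain, binds RNA and DNA, and was named for the Y-box, a promoter sequence built around an inverted CCAAT box. It has roles in splicing, mRNA stability and translation.

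The hosts Nadk, Pfkm and Lrrfip1, all on the plus strand, show what such an event looks like in the genome, since RefSeq has a start at the outer edge and another inside the event window for each. Nadk makes NADP from NAD, Pfkm is the muscle form of the glycolytic enzyme phosphofructokinase, and Lrrfip1 encodes a nucleic acid binding protein. Of the plus-strand events, 649 had a RefSeq start within 200 bases of the outer edge, and 117 had in addition a start inside the window. The sequences run from 100 bases before each start to 19 bases after the start base, 5′ to 3′ on the plus strand, from RefSeq on GRCm38.p6. Capitals mark the GC box, GGGCGG on the strand shown and CCGCCC where it lies on the other strand. The Y-box core CCAAT (on the other strand, ATTGG) and the TATA box TATAAA (on the other strand it reads TTTATA) were searched too and were in none of these windows. For Pfkm the farthest upstream of its 3 inner starts is shown.
Nadk outer start, chr4:155562281-155562400: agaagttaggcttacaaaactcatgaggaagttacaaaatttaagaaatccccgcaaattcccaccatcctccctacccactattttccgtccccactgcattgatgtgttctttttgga
Nadk inner start, chr4:155563715-155563834: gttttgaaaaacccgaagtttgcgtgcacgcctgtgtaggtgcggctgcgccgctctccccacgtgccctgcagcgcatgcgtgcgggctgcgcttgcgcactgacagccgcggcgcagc
Pfkm outer start, chr15:98092489-98092608: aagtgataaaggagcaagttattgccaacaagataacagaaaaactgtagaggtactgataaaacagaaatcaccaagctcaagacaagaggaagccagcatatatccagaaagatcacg
Pfkm inner start, chr15:98108371-98108490: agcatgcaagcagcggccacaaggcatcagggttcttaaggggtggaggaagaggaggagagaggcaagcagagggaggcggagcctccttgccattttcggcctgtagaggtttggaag
Lrrfip1 outer start, chr1:90998627-90998746: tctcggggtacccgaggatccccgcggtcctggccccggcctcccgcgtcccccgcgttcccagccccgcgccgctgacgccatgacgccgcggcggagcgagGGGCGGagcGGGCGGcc
Lrrfip1 inner start, chr1:91053344-91053463: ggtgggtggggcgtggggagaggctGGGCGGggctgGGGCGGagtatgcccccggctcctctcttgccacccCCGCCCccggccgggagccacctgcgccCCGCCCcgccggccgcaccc

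The paired starts differed in base composition. The outer Nadk window held 2 CG dinucleotides and the inner one 15, while Lrrfip1 held 21 in the outer and 12 in the inner. The outer Pfkm window held 1 and the inner one 3. Over the 117 events with both kinds of start, the median was 10 CG dinucleotides in 131 outer windows and 7 in 132 inner windows, and the median over all 32851 RefSeq promoters of this length was 3. The GC box was in 53.4% of the outer windows, 40.9% of the inner windows and 26.7% of all promoters. The Y-box core was, on either strand, in 24.4% of the outer windows, 12.9% of the inner windows and 20.8% of all promoters. The TATA box was in 1.53% of the outer and 1.52% of the inner windows, and in 6.10% of all promoters. These are matches of letters in a window and no evidence of binding.

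The class name held only for events in genes on the plus strand. Event coordinates are the authors' and were set against GENCODE annotation of GRCm38. Each event runs from an outer edge, the lower coordinate, to the edge of an exon that both forms share. For the 1528 events whose host gene lies on the plus strand, the outer edge was within 200 bases of an annotated transcript start in 65.6% and of a transcript end in 6.02%. For the 652 events with a host on the minus strand, it was near a start in 3.68% and near an end in 45.4%. The shared edge was the edge of an annotated exon of the host in 88.3% of the plus-strand and 80.7% of the minus-strand events. The class "Alternative Last Exon" was the mirror image, with starts at 65.1% of 1500 minus-strand events and ends at 45.9% of 671 plus-strand events. On the minus strand the lower coordinate is the 3′ side of the shared exon, and 45.4% of these outer edges were at an annotated end while most others were near neither kind of terminus. The minus-strand members are called terminal events below, and first exons proper are plus-strand members with the outer edge at an annotated start.

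**Figure D1:**
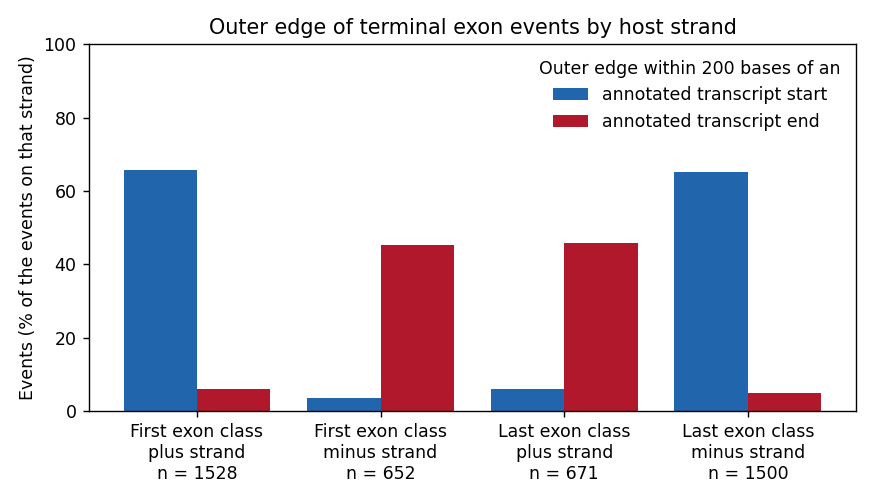
Share of events (%) whose outer edge lies within 200 bases of an annotated transcript start (blue) or end (red), for both terminal exon classes and both host strands, with the number of events under each pair of bars. Starts dominate for first exon events on the plus strand (65.6%) and last exon events on the minus strand (65.1%), and ends dominate in the other pair (45.4% and 45.9%).

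The 2356 events came from 1643 host genes, of which 1225 held 1 event, 329 held 2 and 89 held 3 or more. No gene ID was listed for 168 events, and a further 8 had an ID but no strand in the annotation. Protein-coding genes hosted 2094 events. Tap2, which encodes a subunit of the peptide transporter that loads MHC class I, and Gars, the glycyl-tRNA synthetase, had the most, with 6 each. Serpina3g, a serine protease inhibitor, had 5. Of these 17 events 1 passed p under 0.05 in the authors' deposited table, a Tap2 event with p = 0.0271 and a delta PSI (the change in percent spliced in, given as a fraction) of 0.0136.

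Library totals ran from 22779437 to 37549926 counts over genes. On the first principal component of expression, with 50.9% of the variance, the knockdown libraries lay apart from shNT, and on the second, with 25.4%, shNT replicate 4 lay apart from the other libraries. Ybx1 stood at 1731, 1631, 1607 and 1731 CPM (counts scaled to library size, after TMM scaling) in shNT, at 129.6 and 143 in sh1Ybx1, and at 178 and 217 in sh2Ybx1. Every knockdown library lay below every shNT library, and the knockdown mean was 9.97% of the shNT mean, a log2 fold change of -3.35 (SE 0.14, edgeR quasi-likelihood test, adjusted p = 3.39e-05). Of the defining pro-B markers, Pax5, Ebf1, Vpreb1, Igll1 and Blnk did not reach the count filter, while Cd79a (22.9 CPM in shNT) and Ptprc (158 CPM) did. The mast cell genes tested summed to between 849 and 1254 CPM in shNT and between 479 and 629 CPM in the knockdown, nearly all of it Gata2, which averaged 985 CPM in shNT. By edgeR 2 of the 4 tested mast cell genes were higher in the knockdown and 1, Gata2, was lower. Cpa3 rose from 2.99 to 22.4 CPM (log2 fold change 2.77, edgeR adjusted p = 0.0155) and Hpgds from 0.0898 to 0.625 CPM (2.66, edgeR adjusted p = 0.00420). Myeloid genes, with 7 of 8 tested, summed to 16.3 to 32.5 CPM in shNT and 29.3 to 119.6 CPM in the knockdown. By edgeR 4 of them were higher and 1, Prtn3, was lower. Prtn3 fell from 11.5 to 4.34 CPM (edgeR adjusted p = 0.0135), and Tyrobp rose from 4.45 to 45.6 CPM (edgeR adjusted p = 0.00370). The 2 tested of 5 fibroblast genes summed to 2.26 to 5.33 CPM in shNT and 3.48 to 102 CPM in the knockdown. The part of these marker genes in the results was not tested.

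First exon class events were called about as often as the other classes apart from retained introns. The authors' deposited table gives a p-value that is not adjusted, and 102 of the 2356 events (4.33%) had p under 0.05. The share was 7.15% over all events, 3.87% over all events but retained introns, 23.6% over retained introns and 4.38% over the last exon class. With Benjamini-Hochberg adjustment over all 26983 p-values of the authors' deposited table, 15 first exon class events remained, 0.637% of the class against 1.36% of all events. Of the 102, 38 had a delta PSI of 0.1 or more in size. That is 1.61% of the class against 3.63% of all events.

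**Figure D2:**
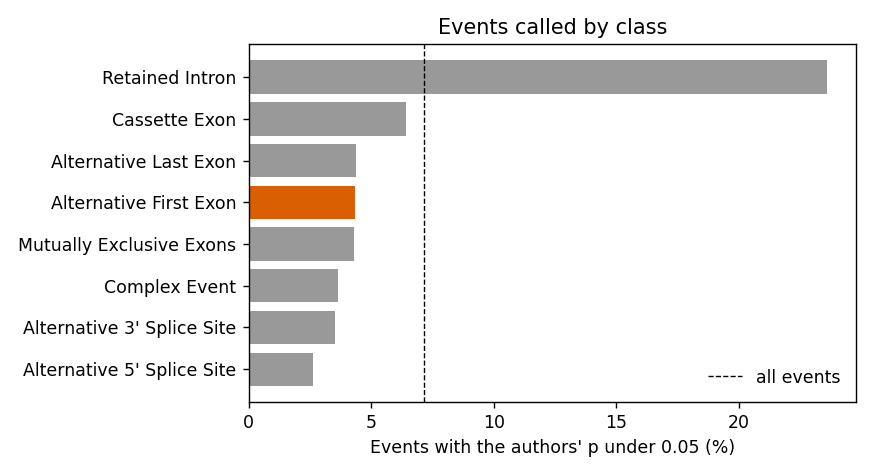
Share of events (%) with the authors' p under 0.05 in each event class, with the first exon class in orange and the share over all events as a dashed line. The first exon class stands at 4.33%, below the 7.15% over all events, and retained introns stand at 23.6%.

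Delta PSI among the called first exon class events went both ways. A positive value was listed in the authors' deposited table for 40 called events, a negative one for 49 and a value of 0 for 13. Retained introns differed in this, with 988 called events positive and 8 negative. The median size was 0.0701 among the called events and 0.00734 among all events of the class, against 0.128 among called retained introns. Of the called events, 21 (20.6%) had a delta PSI under 0.01 in size. For retained introns, the authors' exon table showed the sign: all 81 pairs of a called intron and an exon bin had higher bin use in the knockdown, and 78 of those introns had a positive delta PSI while 3 were listed at 0. No source used here gives which of the paired first exons the value counts, so its sign is reported as listed, and not as a switch to a named promoter.

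The called events were wider than the others. Their median window was 18571 bases, against 6673.5 for events not called. Among the 589 narrowest events, up to 2150 bases, 1.70% were called, and among the 589 widest 7.81%. Host genes of called events had a median level of 30.6 TPM (a level per transcript length and library size), against 71.6 TPM for hosts of events not called. Called retained introns lay inside 4 of the called windows (3.92%) and 58 of the others (2.57%). Read depth per event is not given in the table, so the precision of a single delta PSI is unknown.

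Events on the plus strand were called in 53 of 1528 cases (3.47%) and events on the minus strand in 43 of 652 (6.60%). The remaining 6 called events had no gene ID and so fall outside the events named by gene below. The largest 3 in size among them, picked after their values were seen, were at 0.436 on chromosome 7 (p = 0.0410), 0.344 on chromosome 5 (p = 1.19e-05) and 0.249 on chromosome 14 (p = 0.00289) in the authors' deposited table. The event on chromosome 5 passed the adjustment over all events, with an adjusted p of 0.00342 computed from the authors' deposited table. Of the 53, 39 had their outer edge at an annotated start, which makes 3.89% of the 1002 such events. Of these 39, 17 had positive, 18 negative and 4 zero values in the authors' deposited table. Of the 43 called minus-strand events, 20 had their outer edge at an annotated end, 6.76% of the 296 such events, and 14 of those 20 were negative. The other 23, 6.46% of the 356 minus-strand events not at an end, had 13 positive and 8 negative values in the authors' deposited table.

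**Figure D3:**
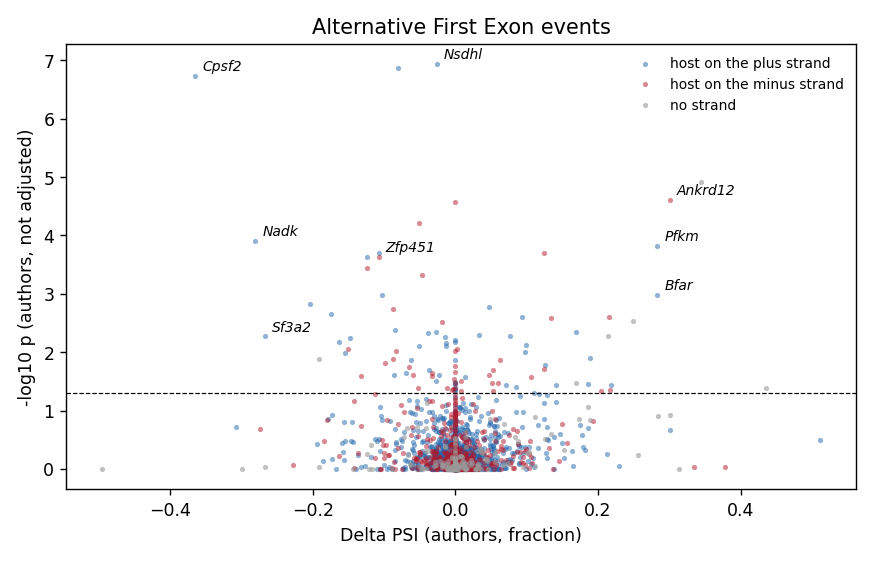
Delta PSI (x axis, fraction) against -log10 of the authors' unadjusted p (y axis) for the first exon class events, coloured by host strand, with the dashed line at p = 0.05. Cpsf2 and Nsdhl stand highest on the y axis among the labelled events at delta PSI of -0.365 and -0.0263, and most events lie near 0.

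Among the first exons proper, on the plus strand at an annotated start, the events with the smallest p and a size of 0.1 or more were those of Nadk, Pfkm and Fbxl4. Nadk (chr4:155562401-155576993) had a delta PSI of -0.280 with p = 0.000124 in the authors' deposited table. Pfkm (chr15:98092441-98112154) had 0.283 with p = 0.000152 in the authors' deposited table. Fbxl4, a mitochondrial F-box protein, was listed in the authors' deposited table at -0.107 with p = 0.000203. These 3 passed the adjustment over all events, with adjusted p of 0.0165, 0.0190 and 0.0223.

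Below them in the authors' deposited table came Bfar, a regulator of apoptosis, at 0.283 (p = 0.00105). Tbc1d1, a Rab GTPase activating protein, had -0.103 in the authors' deposited table (p = 0.00106). Ascc1, a subunit of the ASC-1 complex, stood there at -0.204 (p = 0.00151 in the authors' deposited table). The cleavage stimulation factor subunit Cstf1 had -0.174 in the authors' deposited table (p = 0.00225). These 4 did not pass the adjustment over all events.

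Positive values at annotated starts in the authors' deposited table also included Acbd5, a tether between peroxisomes and the endoplasmic reticulum (0.169, p = 0.00449). Snx10, a sorting nexin, had 0.189 in the authors' deposited table (p = 0.0126) and Nol12, a nucleolar protein, had 0.126 (p = 0.0164). Rere, a transcriptional corepressor, had 0.218 in the authors' deposited table (p = 0.0361), and Lrrfip1 had 0.141 (p = 0.0371). Abl1, a tyrosine kinase known for paired first exons, is not on the gene lists described below and was named after its value was seen. It had 0.0715 with p = 0.0358 in the authors' deposited table.

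The smallest p of the class belonged to Nsdhl, an enzyme of cholesterol synthesis, at an annotated start on chromosome X. Its p was 1.15e-07 in the authors' deposited table, with a delta PSI of -0.0263. Cpsf2, a subunit of the cleavage and polyadenylation complex, had the largest negative delta PSI among called events in the authors' deposited table, -0.365 with p = 1.82e-07. Its outer edge, at chr12:101974846-101981914, was not within 200 bases of an annotated start. The same held for Etnk1, an ethanolamine kinase (-0.124, p = 0.000236 in the authors' deposited table), and for Sf3a2, a subunit of the U2 snRNP (-0.267, p = 0.00537 in the authors' deposited table).

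On the minus strand the terminal events with small p included Ankrd12, Acin1, Zfp451 and Wdr70. Ankrd12, an ankyrin repeat protein that binds nuclear receptor coactivators, had 0.301 with p = 2.44e-05 in the authors' deposited table. Acin1, a component of RNA processing complexes, had 0.124 with p = 0.000198 in the authors' deposited table. Zfp451, a SUMO ligase, had -0.107 (p = 0.000231 in the authors' deposited table) and Wdr70, a WD repeat protein, -0.123 (p = 0.000354 in the authors' deposited table). The outer edges of Zfp451 and Wdr70 lay at annotated ends, and those of Ankrd12 and Acin1 at neither. Other named minus-strand events in the authors' deposited table were Fbrsl1 (0.216, p = 0.00251), the sphingolipid enzyme Kdsr (0.133, p = 0.00262), Swt1 (0.125, p = 0.0197) and the chromosomal silencing factor Smchd1 (0.216, p = 0.0453).

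Around the threshold, the last events inside were Tomm7 (p = 0.0465 in the authors' deposited table) and Zbtb18 (p = 0.0492), and the first outside were Ncapd2 and Vps53 (both p = 0.0520 in the authors' deposited table). Vps53 had a delta PSI of -0.113 and Ncapd2 one of 0 in the authors' deposited table.

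Gene groups of interest held few called events. Of 46 genes with well known alternative promoters in blood cells, 13 hosted 20 events, and 1 was called: Etv6, a transcriptional repressor needed for blood stem cells, at 0.0993 with p = 0.00751 in the authors' deposited table. Dnmt3b, a DNA methyltransferase, stood at -0.0845 in the authors' deposited table with p = 0.207. The 13 events of 11 MAPK and ERK pathway hosts had 0 calls at p under 0.05, and the lowest p there in the authors' deposited table was 0.347 for the ribosomal S6 kinase Rps6ka3. The 14 events of 8 JAK-STAT and interleukin 3 receptor hosts had 0 calls too, the lowest p in the authors' deposited table being 0.157 for Pias3, an inhibitor of STAT3. Jak2 itself was listed in the authors' deposited table with a delta PSI of 0 and p = 0.263.

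Of 43 events in 28 spliceosome, SR protein and hnRNP hosts, 1 was called (2.33%): the SR protein kinase Srpk1, a terminal event at an annotated end, with -0.0190 and p = 0.00301 in the authors' deposited table. Of 16 events in 13 chromatin and promoter regulators, 1 was called, in the Mediator subunit Med1, with -0.0331 and p = 0.0232 in the authors' deposited table. Glycolysis, hypoxia and metal response genes had 23 events in 14 hosts and 1 call, Pfkm. The 25 events in 17 translation and ribosome hosts had 0 calls, and the lowest p in the authors' deposited table was 0.216 for the initiation factor Eif4g3. By list the called shares ran from 0% to 6.25%, against 4.33% of the class. Each rests on 0 or 1 call, and none is a result about its list.

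The deposited transcript levels gave a separate look at the same choice, per library. For each event, the TPM of annotated transcripts that begin (plus strand) or end (minus strand) at the outer edge was set against that of transcripts with a terminus inside the window and the same shared exon. The outer share could be formed for 374 events, 265 on the plus and 109 on the minus strand, and was tested with limma over the 745 terminal events of both classes that had one. No first exon class event passed at adjusted p under 0.05 for both hairpins against shNT (0% of 745 called), while 33 of the 374 had an unadjusted p under 0.05, as did 8.19% of all 745. The lowest adjusted p was 0.0536. The median SD of the outer share within shNT was 12.7 percentage points.

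Nadk transcripts from the outer start made up 0%, 12.2%, 33.8% and 56.2% of the TPM in shNT, 63.3% and 51.0% in sh1Ybx1, and 26.9% and 100% in sh2Ybx1. Values spread widely in each group, and the groups overlapped. The difference did not pass (25.5% ± 24.8 against 60.3% ± 30.5, SD, n = 4 each, limma adjusted p = 0.711), and its direction was opposite in sign to the authors' delta PSI.

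Pfkm transcripts from the outer start were listed at 11.5%, 27.7%, 0% and 0% in shNT, at 56.0% and 46.9% in sh1Ybx1, and at 15.1% and 19.9% in sh2Ybx1. Both sh1Ybx1 libraries lay above every shNT library, and both sh2Ybx1 libraries lay within the shNT range. The limma adjusted p was 0.499 for both hairpins together and 0.702 for the difference between them.

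Lrrfip1 was one of 3 called events whose groups did not overlap. Its outer share was 9.47%, 14.1%, 7.61% and 9.63% in shNT, 26.6% and 15.6% in sh1Ybx1, and 32.4% and 16.9% in sh2Ybx1. All 4 knockdown libraries were above the shNT libraries, yet the limma adjusted p was 0.711. Wdr70, on the minus strand, had an outer share of 40.6%, 47.7%, 47.9% and 49.2% in shNT, 38.6% and 11.1% in sh1Ybx1, and 22.1% and 32.3% in sh2Ybx1. All 4 knockdown libraries were below the shNT libraries (limma adjusted p = 0.591).

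Of the 374 events, 16 (4.28%) had groups that did not overlap, and 3 of these were among the 28 called events with a share. The third was Glce, an epimerase of heparan sulfate synthesis on the minus strand. Its outer share was 96.0%, 82.5%, 96.2% and 100% in shNT, 0% and 0% in sh1Ybx1, and 80.3% and 58.0% in sh2Ybx1. It passed for sh1Ybx1 against shNT (limma adjusted p = 0.0113, where 0.134% of the 745 passed) and not for sh2Ybx1 (adjusted p = 0.537). Without shNT replicate 1 or 3, 0 first exon class events passed for sh1Ybx1. Its transcripts were low, at 7.49 TPM in sum, and the authors' deposited table lists the event with a delta PSI that rounds to 0.

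Jade1, a PHD finger protein of a histone acetyltransferase complex, had an outer share of 90.2%, 83.0%, 84.4% and 77.1% in shNT and 91.7% and 89.4% in sh1Ybx1, while both sh2Ybx1 libraries were listed at 0%. It passed for sh2Ybx1 against shNT (limma adjusted p = 0.00188, where 0.268% of the 745 passed). The difference between the hairpins passed as well (limma adjusted p = 0.00292, where 0.268% passed). Its transcripts summed to 6.89 TPM, and the event had p = 0.482 in the authors' deposited table.

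Some events that were not called in the authors' deposited table had groups of outer shares that did not overlap. The 3 shown were picked after their values were seen. Parp6, Trim13 and Rps2, also not called, had larger shifts, of -49.6, -46.2 and -50.6 points. Their limma adjusted p were lower, at 0.0870, 0.186 and 0.189, and did not pass. Gnb1, a G protein beta subunit, had 48.6%, 46.0%, 42.5% and 46.1% from its outer start in shNT, 65.1% and 70.4% in sh1Ybx1, and 66.4% and 72.4% in sh2Ybx1. All 4 knockdown libraries were higher (45.8% ± 2.53 against 68.6% ± 3.42, SD, n = 4 each). The limma p was 0.0103 before adjustment, where 8.19% of the 745 events had one under 0.05. The limma adjusted p was 0.384. Por, the electron donor of cytochrome P450 enzymes, had 20.5%, 30.5%, 25.6% and 37.6% in shNT, 6.64% and 0% in sh1Ybx1, and 9.88% and 0% in sh2Ybx1 (limma adjusted p = 0.364). Csnk1e, a casein kinase on the minus strand, had 50.3%, 53.5%, 61.4% and 60.2% in shNT, 88.3% and 90.2% in sh1Ybx1, and 68.4% and 87.6% in sh2Ybx1 (limma adjusted p = 0.364).

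**Figure D4:**
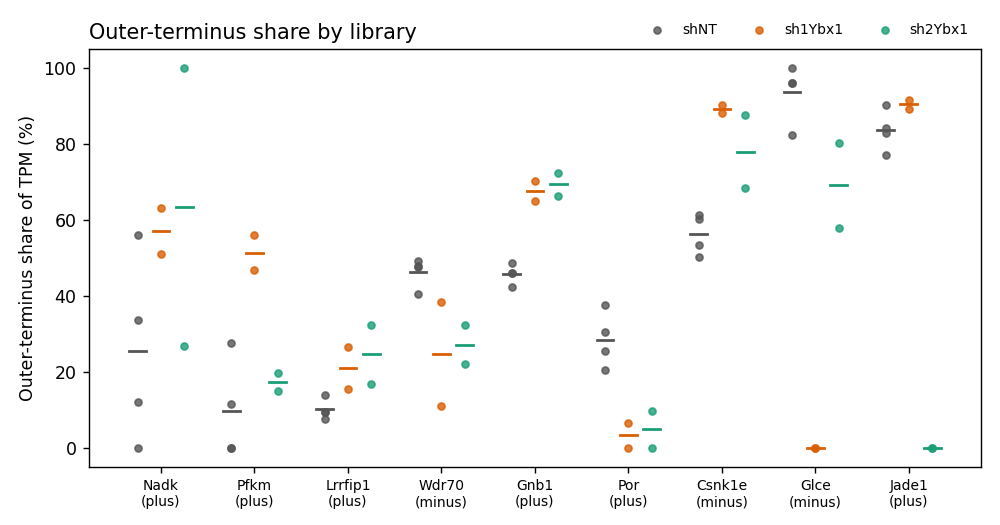
Outer-terminus share of TPM (%) in each library for 9 events, with one point per library, a line at each group's mean, and the host strand under each name. Gnb1 and Csnk1e libraries of both hairpins lie above shNT, Por libraries lie below, and Glce and Jade1 are at 0% in one hairpin each.

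The direction of the authors' delta PSI and of the outer share matched in 12 of the 20 called events with a share and a delta PSI of 0.05 or more in size. For these events the share does not settle which first exon the authors' value counts.

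Shares of single transcripts within their gene were tested in addition, for 4648 transcripts of 1332 host genes among 29076 transcripts in all. For both hairpins against shNT 9 of all transcripts were called (0.031%), and 1 was a host transcript, ENSMUST00000166967 of Ston2, an adaptor of endocytosis. It held 0%, 4.17%, 0% and 0% of Ston2 TPM in shNT, 64.2% and 65.1% in sh1Ybx1, and 73.6% and 70.6% in sh2Ybx1 (limma adjusted p = 0.0416). Leaving out any 1 library other than sh1Ybx1 replicate 2 ended the call, with adjusted p between 0.0666 and 0.151. For each hairpin alone 0 host transcripts passed in limma, where 0.0241% of all transcripts passed for either hairpin. At an unadjusted p under 0.05 there were 237 for sh1Ybx1 (5.98% of all transcripts passed) and 266 for sh2Ybx1 (6.69% of all).

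Other host transcripts near the top did not pass. Those shown were picked from the smallest limma p, so that groups stood apart follows from the choice. The share of all transcripts with groups apart was not counted. ENSMUST00000211716 of Kdelr1, a receptor that returns proteins to the endoplasmic reticulum, was listed at 0% in all 4 shNT libraries, at 29.3% and 25.9% in sh1Ybx1, and at 41.7% and 75.7% in sh2Ybx1 (limma adjusted p = 0.151). ENSMUST00000135136 of Ankrd12 held 49.9%, 27.5%, 38% and 36.4% in shNT, 0% and 1.12% in sh1Ybx1, and 9.13% and 0% in sh2Ybx1 (limma adjusted p = 0.336). ENSMUST00000170653 of Arhgef2 held 11.9%, 17%, 21.7% and 20.6% in shNT and was listed at 0% in all 4 knockdown libraries (limma adjusted p = 0.339). In ENSMUST00000057070 of Zfp456, also near the top, only sh1Ybx1 stood apart. Its share was 100% in every shNT and sh2Ybx1 library, and 46.6% and 35.2% in sh1Ybx1 (limma adjusted p = 0.336). The median SD of a host transcript's share within shNT was 9.37 points.

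Host genes as a whole changed in level about as often as other genes, and more often downward. Of 1627 host genes tested with edgeR, 475 (29.2%) were called for both hairpins against shNT, where 28.9% of all 13552 genes were called. Of the hosts 152 rose and 323 fell. Over all genes 14.8% rose and 14.2% fell, against 9.34% and 19.9% of the hosts. Among protein-coding genes alone, 11.7% of all rose and 15.7% fell, against 9.06% and 20.4% of the hosts. The hosts had a median level of 54.5 TPM and all genes one of 14.0 TPM, and the part of level in this was not tested. Without shNT replicate 4, 894 hosts were called, where 6795 of all 13512 genes were called. Leaving out any hairpin library leaves its group without a replicate, and fewer hosts and fewer of all genes were then called.

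For sh1Ybx1 alone 326 hosts were called (120 rose, 206 fell), where 19.2% of all genes were called, 11.2% rising and 7.96% falling. For sh2Ybx1 alone 325 were called (99 rose, 226 fell), where 19.9% of all genes were called, 10.4% rising and 9.45% falling. Both of these comparisons share the shNT libraries. The difference between the hairpins was called in 5 hosts, where 0.524% of all genes were called. Without shNT replicate 4, 816 hosts were called for sh1Ybx1 and 772 for sh2Ybx1, where 5902 and 5843 of all 13512 genes were called. Leaving out any hairpin library leaves its group without a replicate. Calls for each hairpin then fell, in hosts and in all genes, and most where the library was the hairpin's own.

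Hosts of called events changed in level in 24.5% of cases, 23 of 94 genes, with 6 higher and 17 lower, against 29.2% of all hosts and 28.9% of all genes. By direction, 6.38% of them were higher and 18.1% lower, against 9.34% and 19.9% of all hosts. Nsdhl stood at 151, 115, 104 and 117 CPM in shNT, 55.6 and 60.5 in sh1Ybx1, and 63.4 and 64.6 in sh2Ybx1. There was no overlap, and the level fell by 1.00 on the log2 scale (SE 0.14, edgeR adjusted p = 0.00335). Gpx1, a glutathione peroxidase that removes hydrogen peroxide, stood at 244, 199, 177 and 252 CPM in shNT, 518 and 537 in sh1Ybx1, and 661 and 715 in sh2Ybx1. It rose by 1.47 on the log2 scale (SE 0.15, edgeR adjusted p = 0.00142), with no overlap between groups. Nsdhl and Gpx1 were picked by fold change among called hosts, so the lack of overlap is no separate result.

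Ankrd12 rose from 46.2 ± 13.8 to 87.7 ± 6.75 CPM (SD, n = 4 each, edgeR adjusted p = 0.0136), a call that was lost without sh1Ybx1 replicate 1 (adjusted p = 0.0615) or sh2Ybx1 replicate 1 (adjusted p = 0.0605). The other hosts that rose and were named by the rule were Churc1, the Schlafen family member Slfn4 and the zinc finger gene Zfp160, with log2 fold changes of 0.85, 0.80 and 0.74. Their calls were also lost without sh1Ybx1 replicate 1 (edgeR adjusted p of 0.0691, 0.0807 and 0.0524) or without sh2Ybx1 replicate 1 (0.0686, 0.0825 and 0.0521). Churc1 was lost without sh2Ybx1 replicate 2 as well (0.0515).

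Pxmp4, a peroxisomal membrane protein, fell from 36.0 ± 8.06 to 18.5 ± 3.63 CPM (SD, n = 4 each, edgeR adjusted p = 0.00631). Nfatc3, a calcium-regulated transcription factor, fell from 124 ± 9.09 to 71.3 ± 14.3 CPM (SD, n = 4 each, edgeR adjusted p = 0.00439). Elmo1, which helps activate Rac, and Pard6a, a polarity protein, had log2 fold changes of -0.91 and -0.79 (edgeR adjusted p = 0.0112 and 0.0131). Both lost the call without sh1Ybx1 replicate 1 (edgeR adjusted p = 0.0599 and 0.0691) or sh2Ybx1 replicate 1 (0.0557 and 0.0657).

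Of the hosts with the largest delta PSI, Cpsf2 fell, at 169.9, 175, 196 and 179 CPM in shNT, 109.9 and 132 in sh1Ybx1, and 117 and 130.0 in sh2Ybx1 (log2 fold change -0.56, SE 0.12, edgeR adjusted p = 0.0116). Bfar fell too, by 0.49 on the log2 scale (edgeR adjusted p = 0.0260). Nadk stood at 90.5 ± 12.8 and 110.0 ± 5.75 CPM (SD, n = 4 each) and did not pass (edgeR adjusted p = 0.142). Pfkm stood at 68.5, 55.5, 63.5 and 150.1 CPM in shNT, 47.7 and 52.8 in sh1Ybx1, and 46.6 and 45.9 in sh2Ybx1 (edgeR adjusted p = 0.0817), with shNT replicate 4 the highest library.

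**Figure D5:**
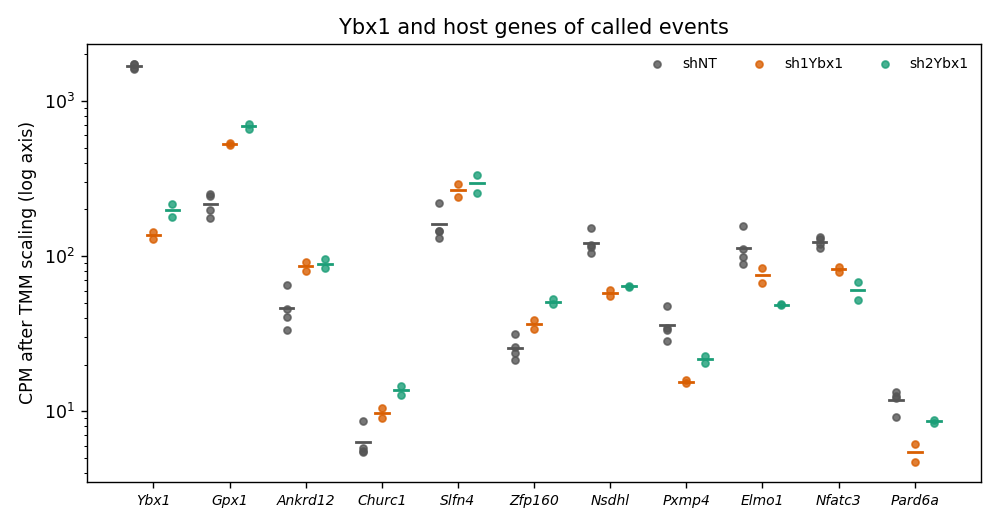
CPM after TMM scaling (log axis) of Ybx1 and of 10 host genes of called events in each library, with one point per library and a line at each group's mean. Ybx1 falls from 1675 CPM in shNT to 167 CPM in the knockdown. The 10 host genes were picked for the highest and lowest fold changes among called hosts. That their shNT and knockdown libraries do not overlap follows from this choice and is no separate result.

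Within the gene lists, the hosts of glycolysis, hypoxia and metal response had the lowest median log2 fold change, -1.66 against -0.10 over all hosts. By edgeR 11 of 14 were lower and 0 higher, where 14.2% of all genes were lower and 14.8% higher, and 19.9% and 9.34% of all hosts. Among them were the triosephosphate isomerase Tpi1 (-2.01) and the oxidoreductase Ero1l (-3.15). Over the whole list, hosts included, 24 of 32 tested genes were lower and 0 higher, with a median of -1.78. The fall was thus not particular to the hosts of the list. Ero1l stood at 1113, 584, 265 and 2087 CPM in shNT, 138 and 107 in sh1Ybx1, and 101.5 and 110.5 in sh2Ybx1. Tpi1 stood at 990.4, 808, 753 and 1276 CPM in shNT, 234 and 274 in sh1Ybx1, and 215 and 228 in sh2Ybx1. For both genes the groups did not overlap and shNT replicate 4 was the highest library. Without that library 13 of the 14 hosts were lower and 0 higher, with a median log2 fold change of -1.37 (-0.11 over all hosts). In that fit 584 of 1627 hosts were lower and 310 higher, and 3606 of 13512 genes were lower and 3189 higher. The counts for the other lists are from all 8 libraries, where 19.9% of all hosts were lower and 9.34% higher. Of the 13 alternative promoter hosts 7 were lower and 0 higher, among them Etv6 (-0.51). Pkm and Ldha, 2 genes of glycolysis, are on both lists and were counted in both. MAPK and ERK hosts had 2 higher and 2 lower of 11, JAK-STAT hosts 0 higher and 2 lower of 8, and spliceosome hosts 1 higher and 9 lower of 28. Chromatin hosts had 0 higher and 3 lower of 13, and translation hosts 1 higher and 4 lower of 17.

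The authors' exon table held 581 exon bins in 461 genes, all with the authors' adjusted p under 0.01. Of these, 127 bins lay in 99 host genes of the first exon class, with 113 higher and 14 lower in use in the knockdown. Inside an event window lay 51 bins of 45 genes, 45 higher and 6 lower (88.2% higher, against 93.5% over the whole sheet). Those that were lower were in Fntb, H2-Q1, Oxr1 and Inpp5b. Over windows of called events lay 5 bins, each higher: in Pspc1, a paraspeckle protein, with a log2 fold change of 1.98 in the authors' deposited table, Fbrsl1 (1.53), the carboxypeptidase Agtpbp1 (1.42), Zfp451 (1.22) and the ubiquitin ligase adaptor Dcaf8 (1.11). Raw counts in the Zfp451 bin were 406, 630, 690 and 274 in shNT, 778 and 716 in sh1Ybx1, and 678 and 837 in sh2Ybx1. Before any scaling for depth, 3 of the 4 knockdown libraries held more reads than every shNT library, and sh2Ybx1 replicate 1 lay below shNT replicate 3. The Pspc1 bin held 19, 25, 15 and 15 reads in shNT, 31 and 15 in sh1Ybx1, and 66 and 39 in sh2Ybx1. In the Dcaf8 bin sh1Ybx1 replicate 2 (328 reads) lay below shNT replicate 1 (382 reads). In the Fbrsl1 and Agtpbp1 bins every knockdown library held more reads than every shNT library.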

How the data were processed

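RNA-seq of 8 libraries was analysed from the deposited tables. Per the submitters' processing notes, STAR, featureCounts, limma and RSEM were used, with GRCm38 and mm9 named as builds. No source used here names the program that called splicing events. Counts per gene, TPM and FPKM per transcript, log2 fold changes of exon bins, and the p-value, z score and delta PSI score per event are the authors' deposited values. Event p-values carry no adjustment by the authors. Benjamini-Hochberg values over all 26983 events were computed here.

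Counts were tested with edgeR 4.0.16 (TMM scaling, filterByExpr, quasi-likelihood test, 3 group means), and SEs were derived from the F statistic. Transcript and terminus shares of TPM were tested with limma 3.58.1 on the arcsine square root scale, with genes of mean TPM of 1 or more and mean shares from 5% to 95%. Calls were adjusted p under 0.05. Scripts were tested on simulated data. DESeq2 1.42.0 and FPKM served as alternatives. Event positions were compared with GENCODE M21 (GRCm38), where 99.7% of the deposited transcripts were found.

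The members and gene lists were chosen with earlier results of these data known, and the terminus share and strand split were added after the data were seen. Named events were those with a delta PSI of 0.1 or more and the 10 smallest p in each direction, the 5 largest in each direction among called ones, hosts with most events, up to 4 hosts per list, and up to 6 events with an exon bin in their gene. Events with no gene symbol were left out of this rule. Named genes were the 5 highest and 5 lowest called hosts with a mean of 5 TPM or more. Intervals for single delta PSI values cannot be given, since the table holds no read counts per event.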

Additional observations from a re-analysis of the deposited data

Results flagged for a closer look

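In groups of 4 shNT libraries, a library was singled out where its gap to the nearest other library was large against the whole range. Chance does this in about 1 in 20 groups, and 37 groups were examined. Churc1 was highest in shNT replicate 2 (8.66 CPM). Slfn4 was highest in shNT replicate 1 (220.3 CPM). The outer-terminus share of Swt1 was 100% in shNT replicate 3, that of Pias3 was 100% in shNT replicate 1, and that of Tap2 was 10.4% in shNT replicate 1. The Ston2 transcript ENSMUST00000166967 had 4.17% in shNT replicate 2 and 0% in the other shNT libraries.

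The hairpins differed in 5 host genes by the edgeR test of the difference, out of 71 of all 13552 genes. That count changed with the libraries and the fit. It was 238 host genes without shNT replicate 4, where 1666 of all 13512 genes were called. Without another shNT library it was 2 or 3, where 19, 24 and 39 genes were called for replicates 1, 2 and 3. It was 111 with DESeq2 (791 of 13588 genes) and 433 with the replicate block (3060 of 13552 genes). Leaving out any hairpin library leaves its group without a replicate, and the host gene calls were then lost. Prdx5, a peroxiredoxin, was higher in sh1Ybx1 than in sh2Ybx1 by 2.16 on the log2 scale (adjusted p = 0.00539), with 796 and 763 CPM in sh1Ybx1 against 171 and 177 in sh2Ybx1. Ywhaz (1.38), Map2k4 (0.93), Arid3a (1.84) and Myl12b (1.34) were higher in sh1Ybx1 in the same test. The outer-terminus share of Jade1 was 90.5% in sh1Ybx1 and 0% in sh2Ybx1 on average.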

How the results depend on the processing

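Of the 102 called events, 48 had the authors' p under 0.01, 15 passed Benjamini-Hochberg adjustment, 38 had a delta PSI of 0.1 or more, 15 one of 0.2 or more, and 94 remained at 1 event per host gene. For both hairpins, host gene calls were 496 with DESeq2 size factors, 621 with DESeq2 and 475 with no count filter. Over all genes those settings called 4009 of 13552, 4837 of 13588 and 3920 of 13588. With the replicate number as a block, host gene calls were 896 for both hairpins, 847 for sh1Ybx1 and 810 for sh2Ybx1. Over all 13552 genes, 6653, 6143 and 6087 were then called. The numbers did not pair the samples (same-number correlations from -0.01 to 0.20). Without one library, host gene calls ran from 152 to 894 (both hairpins), 14 to 816 (sh1Ybx1) and 4 to 772 (sh2Ybx1). Host transcript share calls ran from 0 to 2, 0 to 26 and 0 to 21. The 1 call for both hairpins became 0 on log2(TPM + 1), at a gene mean of 5 TPM, with no share filter and with the replicate block. For sh1Ybx1 log2(TPM + 1) and no share filter gave 1 each. Terminus share calls without one library ran from 0 to 2, 0 to 3 and 1 to 4. A tolerance of 500 bases gave 2 for both hairpins, and the replicate block gave 0 for sh1Ybx1 and 0 for sh2Ybx1. The cause of these shifts was not tested. The 127 exon bins in host genes could not change, since every listed bin already had the authors' adjusted p under 0.01. Log2 fold changes of the 10 named host genes and Ybx1 kept their direction under every alternative run.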
